A study of Mus musculus with 2 samples.

Results

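The nuclear genes of oxidative phosphorylation, the respiratory chain and ATP synthase of mitochondria, were examined for CTCF sites around their 5' ends in newborn mouse heart. They were taken by name from the protein-coding genes of GENCODE M21 on chromosomes 1 to 19: names beginning Ndufa, Ndufb, Ndufc, Ndufs or Ndufv (complex I), Sdha to Sdhd (complex II), names beginning Uqcr, and Cyc1 (complex III), names beginning Cox4 to Cox8 (complex IV) and names beginning Atp5 (complex V). This gave 92 gene records of 20807, with 44, 4, 9, 17 and 18 in complexes I to V. Atp5o has 2 records, so there are 91 names, and the X-linked Ndufa1, Ndufb11 and Cox7b fall outside. The names also bring in genes that are not subunits of the finished enzymes, such as the 8 Ndufaf genes, whose products help to assemble complex I, and Cox7a2l, a factor of respiratory supercomplexes. The complex was assigned by name alone. For some genes, such as Ndufa4 and its paralog Ndufa4l2, it may not be that of the product.

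The data are CTCF ChIP-seq of whole heart from mice of strain B6NCrl at postnatal day 0, with no treatment or genotype named. There is a single group of 2 libraries, replicate 1 and replicate 2, which share a tissue sample and a donor in the labels, and nothing says that they came from separate animals; differences between them may therefore be technical. The authors deposited a list of 44533 optimal peaks that passed their reproducibility filter (IDR), with a signal value for each peak from the pooled reads (list median 60.8), and a relaxed list of 300000 peaks per library and for the pool. Signals of a library are from its own relaxed list, at the peak within 100 bp of the optimal summit, and were not rescaled. Read depth is not given in the lists, so no counting error can be put on a signal. In whole heart, CTCF bound in fewer cells and weaker binding per cell cannot be told apart. Peak lists hold no expression values, so the tissue could not be checked by marker genes. With no contrast between conditions, and with members chosen with earlier results of these data known, no test was made: counts are set beside those of all other protein-coding genes on the same chromosomes.

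As background, complexes I, III and IV pass electrons to oxygen and pump protons across the inner mitochondrial membrane, complex II feeds in electrons from succinate, and complex V uses the proton gradient to make ATP. Adult heart muscle depends on this pathway for nearly all its ATP, and several complex IV subunits have a muscle-type isoform that replaces the ubiquitous form as the heart matures. CTCF is a zinc finger protein that binds a long, directional DNA motif, halts cohesin to form chromatin loops and is also found at promoters.

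Several complex I, III and V genes had a strong CTCF site close to the start, and the sequences at these sites are shown here. Each line gives the stretch that best matches the CTCF core consensus within 50 bp of the summit, in capitals, with 10 flanking bases on each side, read 5' to 3' on the strand of the match (GRCm38, the mm10 assembly).
Ndufb7, chr8:83566657-83566690, plus strand: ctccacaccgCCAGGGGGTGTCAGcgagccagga
Ndufa6, chr15:82354420-82354453, plus strand: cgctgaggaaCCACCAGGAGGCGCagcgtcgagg
Ndufc1, chr3:51409021-51409054, minus strand: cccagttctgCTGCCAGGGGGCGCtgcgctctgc
Ndufaf4, chr4:24898017-24898050, plus strand: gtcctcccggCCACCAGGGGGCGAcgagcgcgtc
Ndufb10, chr17:24724486-24724519, minus strand: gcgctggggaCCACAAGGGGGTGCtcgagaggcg
Ndufv1, chr19:4012915-4012948, minus strand: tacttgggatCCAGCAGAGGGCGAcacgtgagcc
Ndufv2, chr17:66101876-66101909, minus strand: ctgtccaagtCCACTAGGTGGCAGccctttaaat
Uqcrc1, chr9:108936606-108936639, plus strand: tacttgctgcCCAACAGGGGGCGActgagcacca
Atp5k, chr5:108434453-108434486, minus strand: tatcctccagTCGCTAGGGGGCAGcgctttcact
Atp5mpl, chr12:111967071-111967104, plus strand: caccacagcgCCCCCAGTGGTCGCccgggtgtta

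The match at Ndufv2 had 0 mismatches to the consensus, those at Ndufa6, Ndufaf4 and Ndufv1 had 1, those at Ndufc1, Ndufb10, Uqcrc1 and Atp5k had 2, and those at Ndufb7 and Atp5mpl had 3. The core at Ndufa6 and the match at Atp5mpl lay on the strand opposite to the gene, and the other 8 on the gene's own strand. These 10 sites do not stand for all promoter sites above the list median: those at Ndufaf3, Ndufaf6, Ndufab1, Ndufa12 and Uqcrc2, not printed, had best matches with 3 or 4 mismatches, which lay on the opposite strand at each of them but Ndufab1.

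CTCF summits were found within 1 kb of the 5' end of 31 of the 92 genes (33.7%), against 21.8% of the 20715 other protein-coding genes. Within 10 kb the counts were 67 of 92 (72.8%), against 51.8% of the other genes. Each library's own 44533 strongest peaks gave 30 and 33 genes at 1 kb, or 34.2% ± 2.31 (SD, n = 2), against 21.8% ± 0.563 of other genes, and 65 and 66 genes at 10 kb, or 71.2% ± 0.769, against 52.0% ± 0.222. These SDs cover only the difference between libraries of the same tissue sample, not how such shares vary between sets of genes. The optimal summit nearest to the 5' end was at a median of 2.95 kb for these genes and 9.07 kb for the others. In 3 genes, Ndufa4, Ndufs4 and Cox7c, no optimal summit lay within 50 kb, and the nearest were 114, 68.1 and 191 kb away.

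The complexes differed in how often CTCF lay at the promoter. Complex III had a summit within 1 kb at 6 of 9 genes (66.7%), complex II at 2 of 4, complex I at 18 of 44 (40.9%), complex V at 4 of 18 (22.2%) and complex IV at 1 of 17 (5.88%). The share of other protein-coding genes was 21.8%, close to that of complex V. The libraries' own lists gave 4 and 5 genes in complex III, 2 and 3 in complex II, 19 and 17 in complex I, 4 and 5 in complex V, and 1 and 3 in complex IV. At 10 kb the counts were closer to each other, with 32 of 44 in complex I, 4 of 4 in complex II, 8 of 9 in complex III, 10 of 17 in complex IV and 13 of 18 in complex V. Of other protein-coding genes, 51.8% had a summit within 10 kb. Near the limit of 1 kb, Atp5f1, Ndufa13 and Uqcr11 were inside at 799, 835 and 846 bp, and Cyc1, Atp5g2 and Cox6a1 outside at 1124, 1151 and 1196 bp. Near that of 10 kb, Atp5g1 was inside at 9929 bp, and Cox4i2, Atp5e and Cox4i1 were outside at 10137, 10184 and 10391 bp.

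**Figure D1:**
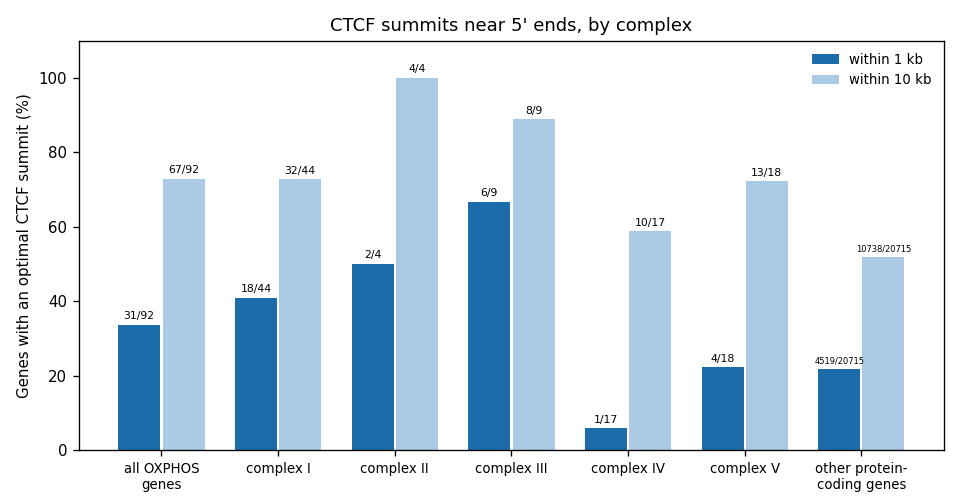
Share of genes (%) with an optimal CTCF summit within 1 kb (dark bars) and 10 kb (light bars) of the 5' end, for all oxidative phosphorylation (OXPHOS) genes, each complex and the other protein-coding genes, with the counts above the bars. At 1 kb complex III reaches 66.7% and complex IV 5.88%, while at 10 kb each complex is above the 51.8% of other genes.

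The largest difference in summit density was just upstream of the start. In the 500 bp before the 5' end there were 21 summits over the 92 genes, or 0.457 per gene and kb, against 0.212 in other genes. In the 500 bp after it the densities were 0.174 and 0.137. From 2 to 5 kb upstream they were 0.0725 and 0.0364, and from 1 to 2 kb downstream, the only class in which these genes were not above the others, 0.0435 and 0.0448. Of the 37 promoter summits, all distinct, 25 lay upstream and 12 downstream, and 20 were within 150 bp of the 5' end. The 67 genes with a summit within 10 kb had 134 distinct summits between them, and 38 genes had more than 1. The mean over all 92 genes was 1.49 summits within 10 kb, against 0.862 in other genes.

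**Figure D2:**
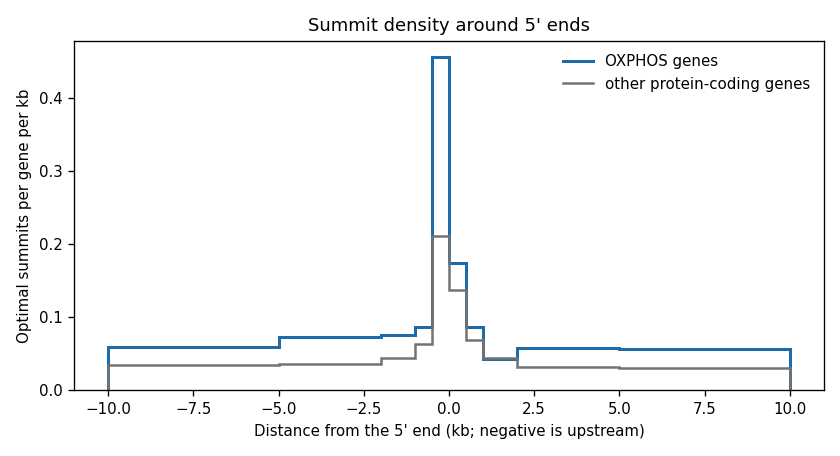
Optimal CTCF summits per gene and kb by distance from the 5' end (kb, negative upstream), for oxidative phosphorylation genes (blue) and other protein-coding genes (grey). The highest step, in the 500 bp upstream, is at 0.457 for the oxidative phosphorylation genes and 0.212 for the others.

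Promoter sites varied widely in signal. The strongest promoter site of each of the 31 genes ranged in pooled signal from 10.1 at Uqcrb to 258 at Ndufb7. The median of these was 51.0, against 45.8 in other genes with a promoter site. Over all 37 promoter summits the order was reversed, with a median of 34.8, against 43.0 at 4547 other summits within 1 kb of protein-coding 5' ends. Sites at or above the list median of 60.8 were found at 15 of the 92 genes (16.3%), against 9.27% of other genes. These 15 were 11 complex I genes, Uqcrc1 and Uqcrc2 in complex III, and Atp5mpl and Atp5k in complex V. No complex II or complex IV gene was among them. Replicate 2 was lower than replicate 1 at 24 of the 31 strongest promoter sites and higher at 6, with log2 ratios from -1.29 at Atp5c1 to 0.38 at Ndufv2 and a median of -0.22. The same count for other genes is not given here. The median signal of their strongest promoter sites was 25.45 in replicate 1 and 23.24 in replicate 2. Signals were not rescaled, so the order of the libraries is not read as a trait of these promoters.

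In complex I, the NADH dehydrogenase, the strongest promoter site was at Ndufb7, which encodes an accessory subunit of the membrane arm. Its summit, 6 bp downstream of the 5' end in an annotated exon, had a signal of 131 in replicate 1 and 124 in replicate 2 (127.7 ± 4.96, SD, n = 2) and was stronger than 98.8% of optimal peaks. Ndufa6, an accessory subunit that holds the mitochondrial acyl carrier protein, had 127 and 129 at a summit 111 bp upstream. Ndufc1, a small membrane subunit, had 125 and 121 at 45 bp upstream, and Ndufb10, another membrane arm subunit, had 109.5 and 103 at 25 bp upstream. At these 4 genes the libraries differed by small amounts relative to their means, with log2 ratios of replicate 2 to replicate 1 from -0.08 to 0.02.

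Of the module that takes electrons from NADH, Ndufv1, which binds NADH and flavin, had signals of 103 and 85.2 in replicates 1 and 2 at 134 bp upstream. Ndufv2, an iron-sulfur subunit, had 57.1 and 74.4 at 341 bp upstream, the reverse order of the libraries. Ndufs1, the largest subunit of this module, had no summit within 1 kb, and its strongest lay 4.42 kb upstream between genes (122 and 102). Among the subunits of the module that reduces ubiquinone, Ndufs7 and Ndufs8, both iron-sulfur proteins, had weak promoter sites of pooled signal 20.5 and 15.3. Ndufs7 also had a strong site 3.29 kb upstream (121 and 89.6). Ndufs3 had no optimal summit within 10 kb.

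Promoter sites were also found at 3 of the 8 assembly factor genes. Ndufaf4 had 123 and 112 in replicates 1 and 2 at 51 bp upstream, and Ndufaf3 had 92.7 and 83.9 at 427 bp downstream in its own exon. The products of both are known to act in early steps of complex I assembly. Ndufaf6 had 64.5 and 55.1 at 91 bp upstream. Ndufaf1 and Ndufaf2 had summits only beyond 1 kb, at 6.42 and 1.56 kb, as did Ndufaf8, at 2.31 kb, and Ndufaf5 and Ndufaf7 had none within 10 kb.

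The other complex I promoter sites were of middling or low signal. Ndufab1, the acyl carrier protein, had a pooled signal of 112 at 52 bp upstream, and Ndufa12, an accessory subunit of the matrix arm, had 84.9 at 587 bp downstream in an intron. Ndufa13, also known as GRIM-19, had 51.0 in a coding exon, and Ndufa3 had 34.0 at 290 bp upstream, within 1 kb of the 5' end of Oscar. Signals of 11.3 to 13.9 were found at Ndufb3, Ndufc2 and Ndufa9, where at most 3.7% of optimal peaks were weaker. At Ndufb3 the relaxed list of replicate 2 held no peak within 100 bp of the summit. The strongest site near any gene of the pathway was 1.97 kb upstream of Ndufa4l2, a hypoxia-induced paralog of Ndufa4, with 173 and 136 in replicates 1 and 2 (pooled 308, above 99.7% of optimal peaks).

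**Figure D3:**
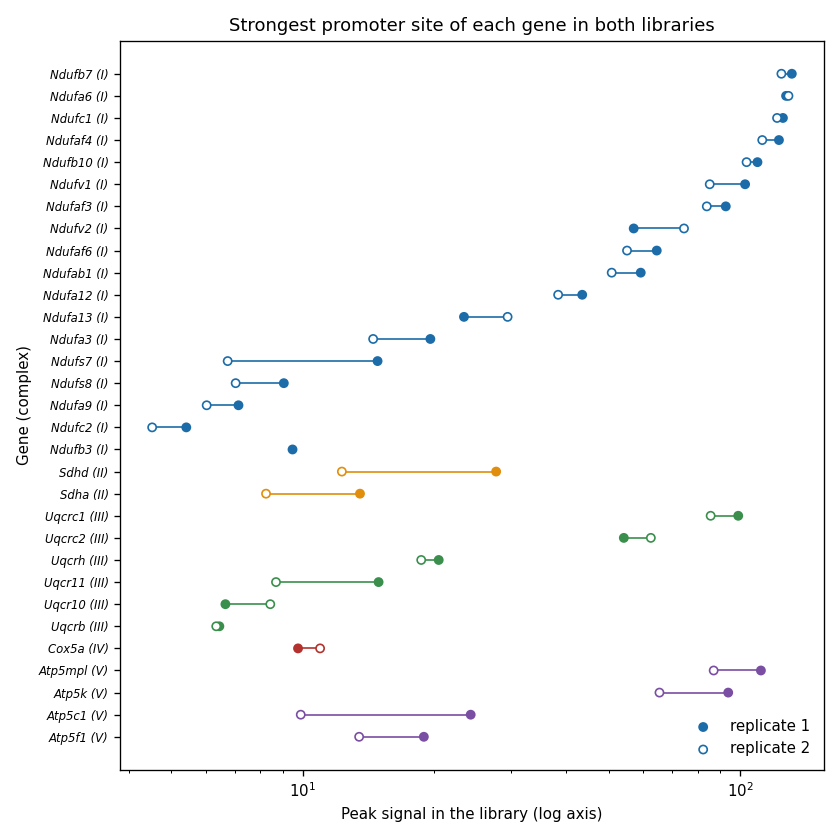
Signal (log axis) of the strongest optimal CTCF site within 1 kb of each of the 31 genes that have one, in replicate 1 (filled) and replicate 2 (open), by complex and falling pooled signal. The 11 strongest complex I sites lie between 38.4 and 131 in both libraries, and Ndufb3 has a value in replicate 1 alone.

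In complex II, succinate dehydrogenase, promoter sites were weak. At Sdha and Sdhb the strongest site within 10 kb lay farther out, for Sdha 9.04 kb downstream in its own intron (pooled signal 120). At Sdhd the promoter site was the only optimal summit within 10 kb. Sdha, the flavoprotein, had 13.5 in replicate 1 and 8.25 in replicate 2 at 88 bp downstream, in a coding exon. Sdhd, a membrane anchor, had 27.7 and 12.3 at 222 bp upstream, in a coding exon of its neighbour Timm8b. At both genes replicate 1 was the higher. Sdhb, the iron-sulfur subunit, had its strongest site 3.16 kb upstream (109 and 89.1) and a second one 3.59 kb downstream in its own intron (90.1 and 78.3). Sdhc, the other membrane anchor, had no optimal summit within 1 kb. Its only one within 10 kb, 8.93 kb upstream, had a pooled signal of 17.4 and no peak in the relaxed list of replicate 2 within 100 bp.

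In complex III, the cytochrome bc1 complex, the large core proteins had the stronger promoter sites. Uqcrc1 had signals of 98.96 in replicate 1 and 85.6 in replicate 2 at 11 bp upstream (92.3 ± 9.45, SD, n = 2), and Uqcrc2 had 54.2 and 62.5 at 38 bp upstream. Among the small subunits, Uqcrh, the hinge protein, had 3 promoter summits, the strongest of which, with 20.5 and 18.7, lay in its own intron. Uqcr11 had 14.9 and 8.69, and Uqcr10 had 6.66 and 8.43. Uqcrb, whose site also lay near the 5' end of Gm10767, had 6.45 and 6.35. Its pooled signal of 10.1 was the lowest among the strongest promoter sites of the 31 genes, but in each library Ndufc2 was lower, with 5.42 and 4.53. Uqcrq was the only complex III gene with no optimal summit within 10 kb. The electron-carrying subunits had none within 1 kb: for Cyc1, cytochrome c1, the nearest was 1.12 kb downstream in its own coding exon (16.6 and 14.1), and for Uqcrfs1, the Rieske iron-sulfur protein, the nearest was 3.71 kb upstream and was the strongest of the complex (138 and 112).

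Complex IV, cytochrome c oxidase, had an optimal CTCF summit at the promoter of only 1 of its 17 genes (5.88%), against 21.8% of other genes. Its single gene with promoter sites was Cox5a, whose product is a matrix-side subunit, and the stronger of its 2 sites had only 9.76 in replicate 1 and 10.96 in replicate 2. The share of 1 in 17 was 3 in 17 with the strongest peaks of replicate 2 alone. In the relaxed list of the pool, which includes background, 12 of the 17 had a summit within 1 kb (70.6%), against 59.7% of other genes. Complex IV by name includes Cox4i2, Cox6b2, Cox7b2 and Cox8c, with promoter ratios of observed to expected CpG from 0.38 to 0.47. The median ratio over the 17 genes was 0.67, against 0.57 in other genes. Cox4i1, Cox6a1 and Cox6c, with high ratios of 1.0, 0.96 and 0.82, had no optimal promoter summit either, while Cox5a had 0.97. Of other genes with a ratio under 0.6, 11.8% had a promoter summit, and of those at or above 0.6, 33.1% did. The part of CpG content in the complex IV count was not tested. The strongest site within 10 kb of the 10 complex IV genes that had one was at a median pooled signal of 159.8, close to the 155.0 of complex I and the 148.9 of the whole pathway, against 90.1 in other genes. Cox5b, for example, had a site of 108 and 61.3 at 7.16 kb upstream.

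The muscle-type isoforms of complex IV each had a strong CTCF site 2 to 3 kb upstream. Cox6a2, the heart and muscle form of subunit VIa, had 120.5 in replicate 1 and 97.3 in replicate 2 at 2.01 kb upstream, in an intron of Itgad. Cox7a1, the heart and muscle form of subunit VIIa, had 85.9 and 74.2 at 2.63 kb upstream. Cox8b, the muscle form of subunit VIII, had 93.7 and 104.0 at 2.98 kb upstream and a further site 8.27 kb upstream (94.6 and 74.9). None of the 3 had an optimal summit within 1 kb. Their promoters were poor in CpG, with ratios of observed to expected CpG of 0.26 at Cox6a2, 0.28 at Cox7a1 and 0.25 at Cox8b, against 0.96 at Cox6a1, 0.80 at Cox7a2 and 0.69 at Cox8a. The ubiquitous partners were less alike: Cox6a1 had 95.2 and 82.3 at 1.20 kb downstream in its own intron, Cox8a had 17.9 and 16.2 at 6.09 kb upstream, and Cox7a2 had no optimal summit within 10 kb, its nearest being 19.7 kb away. Cox4i1, the ubiquitous form of subunit IV, and Cox4i2, the form known from lung and low oxygen, had none within 10 kb. These pairs were chosen by name, and 3 pairs do not allow a test. The range of 2 to 3 kb was drawn around the sites seen, and the share of other genes with such a site is not given here. From 2 to 5 kb upstream, the whole pathway had 0.0725 summits per gene and kb, against 0.0364 in other genes.

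The best matches to the core consensus at the sites nearest to the muscle-type isoforms and at Cox6a1 are shown for comparison (GRCm38, best match in capitals). All 4 lay on the strand of the gene, with 2 mismatches at Cox6a2, 1 at Cox7a1 and 0 at Cox6a1. The match at Cox8b had 3 mismatches and so is not counted as a core below, and the site 8.27 kb upstream of Cox8b had a core with 2 mismatches on the opposite strand. The strongest sites of Sdhb and Uqcrfs1 follow, each with 1 mismatch, on the opposite strand to Sdhb and on that of Uqcrfs1.
Cox6a2, chr7:128208381-128208414, minus strand: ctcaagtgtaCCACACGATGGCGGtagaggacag
Cox7a1, chr7:30181487-30181520, plus strand: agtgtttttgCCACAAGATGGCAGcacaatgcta
Cox8b, chr7:140903415-140903448, minus strand: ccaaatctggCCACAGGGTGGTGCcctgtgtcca
Cox6a1, chr5:115347770-115347803, minus strand: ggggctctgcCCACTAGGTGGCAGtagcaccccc
Sdhb, chr4:140958028-140958061, minus strand: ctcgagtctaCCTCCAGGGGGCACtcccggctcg
Uqcrfs1, chr13:30549053-30549086, minus strand: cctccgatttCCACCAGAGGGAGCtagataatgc

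**Figure D4:**
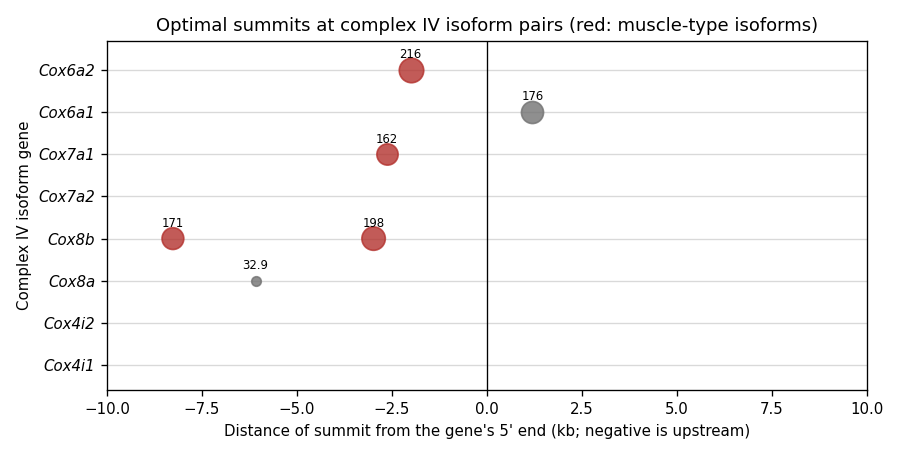
Optimal CTCF summits within 10 kb of complex IV isoform genes by distance from the 5' end (kb, negative upstream), with circle area and number giving the pooled signal, muscle-type isoforms in red and the other isoforms in grey. The 3 muscle-type genes each have a site of 162 to 216 between 2 and 3 kb upstream, and no site lies at Cox7a2, Cox4i2 or Cox4i1.

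In complex V, ATP synthase, promoter sites were at 4 genes, and not at Atp5b, which encodes the catalytic subunit, or at Atp5a1. Atp5mpl, a small proteolipid of the enzyme, had 111.5 in replicate 1 and 86.96 in replicate 2 at 117 bp upstream, and Atp5k, subunit e of the membrane part, had 93.9 and 65.4 at 22 bp upstream. Replicate 1 was the higher at both. Atp5c1, the gamma subunit of the rotor, had 24.2 and 9.90 at 82 bp upstream, close to the 5' end of its neighbour Kin, and Atp5f1, subunit b of the stalk, had 18.9 and 13.5 at 799 bp upstream, in an intron of Wdr77. Atp5b had 6 summits within 10 kb, the most of any gene of the pathway. The strongest of them lay 7.89 kb downstream, within 1 kb of the 5' end of Baz2a (133). Atp5a1 had none within 10 kb.

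Of the 3 genes for the membrane ring subunit c, Atp5g2 had the strongest site of the complex, 1.15 kb downstream in its own intron (146 in replicate 1 and 122 in replicate 2). Atp5g1 had only a weak summit 9.93 kb downstream, and Atp5g3 had none within 10 kb. Atp5o, the stalk subunit that confers oligomycin sensitivity, had 109.8 and 91.7 at 4.84 kb upstream, and its longer record, which starts elsewhere, shared this summit and 2 more, the only summits counted for more than 1 record.

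**Figure D5:**
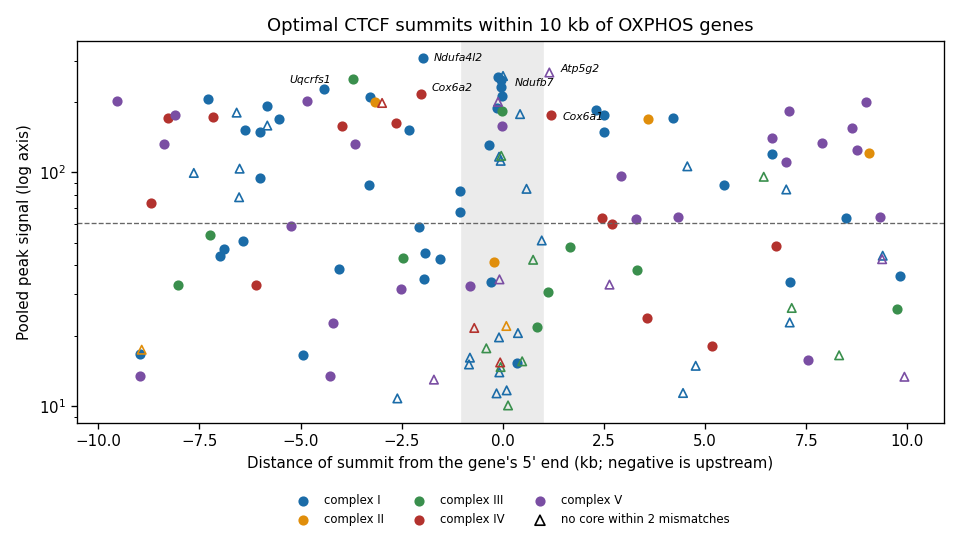
Pooled signal (log axis) of every optimal CTCF summit within 10 kb of an oxidative phosphorylation gene against its distance from the 5' end (kb, negative upstream), coloured by complex. Filled circles have a CTCF core with at most 2 mismatches, open triangles do not. The grey band marks 1 kb to either side and the dashed line the list median of 60.8, and Ndufa4l2 has the strongest summit, at 308.

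Promoter sites of the pathway carried a recognisable CTCF core less often than optimal peaks in general. The core consensus, 14 bases long and searched on both strands within 50 bp of the summit, was found with at most 2 mismatches at 13 of the 37 promoter summits (35.1%), at 49.1% of 4547 other summits within 1 kb of protein-coding 5' ends and at 73.4% of all optimal summits on these chromosomes. Windows 1000 bp to the left and right of all summits held it at 2.81% and 2.96%. The 13 with a core had a median signal of 157, and the 24 without had 21.0, although Ndufb7, at 258, was among those without. Of the 15 promoter summits at or above the list median, 8 had a core and the other 7 had a best match of 3 or 4 mismatches. Of the 22 below it, 5 had a core. Beyond 1 kb, 75 summits had one and 22 did not. The core lay on the strand of the gene at 10 of the 13 promoter summits, and at 58.1% of the 2234 other core-bearing summits near protein-coding 5' ends. Whether these shares differ was not tested.

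For 4 of the genes the whole promoter from 250 bases before to 50 after the start in RefSeq (GRCm38.p6) is printed with the best core match in capitals, to show how close the match lay to the start, which follows the first 250 bases. RefSeq starts can differ from the GENCODE 5' ends used for all distances here. At Uqcrc1 the match begins at base 219, at Atp5k at base 174, at Ndufb10 at base 165 and at Ndufc1 at base 162.
Ndufc1 promoter, chr3:51408906-51409205, minus strand: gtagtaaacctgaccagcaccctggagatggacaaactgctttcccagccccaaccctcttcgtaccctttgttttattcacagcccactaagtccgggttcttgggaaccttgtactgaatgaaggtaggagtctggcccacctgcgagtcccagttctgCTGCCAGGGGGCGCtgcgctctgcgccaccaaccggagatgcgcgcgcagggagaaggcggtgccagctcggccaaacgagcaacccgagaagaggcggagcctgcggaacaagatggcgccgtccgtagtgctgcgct
Ndufb10 promoter, chr17:24724374-24724673, minus strand: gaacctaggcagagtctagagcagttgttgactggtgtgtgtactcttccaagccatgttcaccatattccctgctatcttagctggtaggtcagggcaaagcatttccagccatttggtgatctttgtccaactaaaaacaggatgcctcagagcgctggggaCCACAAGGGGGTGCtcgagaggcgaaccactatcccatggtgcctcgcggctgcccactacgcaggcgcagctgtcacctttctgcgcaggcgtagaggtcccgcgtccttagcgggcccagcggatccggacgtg
Uqcrc1 promoter, chr9:108936398-108936697, plus strand: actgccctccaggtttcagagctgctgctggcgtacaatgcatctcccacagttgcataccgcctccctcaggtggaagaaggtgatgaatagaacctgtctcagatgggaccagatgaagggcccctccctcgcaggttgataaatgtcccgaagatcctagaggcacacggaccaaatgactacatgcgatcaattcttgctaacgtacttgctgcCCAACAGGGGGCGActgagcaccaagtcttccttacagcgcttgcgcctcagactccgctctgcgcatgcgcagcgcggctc
Atp5k promoter, chr5:108434350-108434649, minus strand: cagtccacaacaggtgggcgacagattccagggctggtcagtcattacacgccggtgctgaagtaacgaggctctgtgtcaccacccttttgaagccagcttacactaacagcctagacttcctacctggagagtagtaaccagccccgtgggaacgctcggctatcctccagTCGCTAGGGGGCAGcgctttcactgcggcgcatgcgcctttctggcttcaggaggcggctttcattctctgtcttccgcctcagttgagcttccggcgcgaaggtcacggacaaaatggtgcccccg

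Other motifs known from promoters of respiratory genes were counted in the same windows, which were found for 73 of the 91 names. The letters GCGCATG, part of the site of the respiratory factor NRF1, were on either strand in 20.5% of these promoters, against 4.99% of 15953 promoters of other genes. The ETS letters CCGGAAG were in 23.3%, against 12.3%, and the YY1 letters AAGATGG in 15.1%, against 6.38%. Overlap between the motifs was allowed, and a match is not evidence of binding. The NRF1 and ETS letters contain a CpG, and the promoters compared were not matched for CpG content. The ratio of observed to expected CpG was at least 0.6 at 79.3% of the pathway's genes, against 47.1% of other genes. Within the pathway, promoters with and without a CTCF summit held the letters at 5 of 27 and 10 of 46 for NRF1, 6 of 27 and 11 of 46 for ETS, and 5 of 27 and 6 of 46 for YY1.

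The genes of the pathway differed from other genes in promoter CpG content, length and spacing. The ratio of observed to expected CpG within 500 bp of the 5' end had a median of 0.72, against 0.57 in other genes, and was at least 0.6 at 79.3% of these genes, against 47.1%. Among genes at or above that ratio, 26 of 73 (35.6%) had a promoter summit, against 33.1% of other genes, a smaller difference than over all genes. Below it, 5 of 19 (26.3%) did, against 11.8%. At 10 kb the shares in the CpG-rich class were 74.0% and 63.5%. Genes of the pathway were also shorter (median 7.57 kb, against 17.7 kb) and closer to other genes, with no other protein-coding 5' end within 10 kb at 38.0%, against 69.9%. Among genes with none that near, 24 of 35 (68.6%) had a summit within 10 kb, against 47.7%. Within 1 kb, 12 of these 35 (34.3%) had one, against 20.6%. The part of CpG content or gene spacing in the counts was not tested.

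A divergent protein-coding partner within 1 kb upstream, as at a bidirectional promoter, was present at 22 of the 92 genes (23.9%), against 6.89% of other genes. Of these 22 genes, 6 (27.3%) had a promoter summit, against 29.0% of other genes with a partner, and 25 of the 70 without a partner (35.7%) had one, against 21.3% of other genes without. The 6 were Sdha with Ccdc127, Sdhd with Timm8b, Uqcrh with Lrrc41, Uqcr10 with Zmat5, Atp5c1 with Kin, and Ndufb3 with Fam126b. All had signals below the list median, so that 0 of the 22 had a stronger site, against 9.03% of other genes with a partner, and all 15 stronger promoter sites were at genes without a partner (21.4% of 70, against 9.29%). Of the 37 promoter summits, 12 lay within 1 kb of the 5' end of another protein-coding gene too. The same share for promoter summits of other genes is not given here.

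Most promoters of the pathway without an optimal summit still had a peak in the relaxed list of the pooled libraries, which includes background. A relaxed summit lay within 1 kb of 80 of the 92 genes (87.0%), against 59.7% of other genes. Of the 61 without an optimal promoter summit, 49 had one (80.3%). The matching share for other genes without an optimal promoter summit is not given here. The 59.7% also covers genes that have one. Examples are Ndufa2 (18.6) and Atp5g1 (14.0), while Ndufb4, Cyc1, Atp5g3 and Atp5l were among those with none.

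Other genes of mitochondrial respiration had CTCF summits near the 5' end at varied rates. The shares to set beside them are the 21.8% at 1 kb and 51.8% at 10 kb of all protein-coding genes outside the pathway. Of 39 further assembly factors, 14 had an optimal summit within 1 kb (35.9%) and 23 within 10 kb (59.0%), led by Cox19, a copper-handling factor of complex IV assembly (127 in replicate 1 and 101 in replicate 2, 4.01 kb upstream), Cox14 (119 and 95.3, 0.17 kb upstream) and Uqcc2, a complex III factor (94.2 and 79.4, 0.09 kb upstream). Of 19 genes for cytochrome c, mitochondrial DNA expression and its regulators, 9 had one within 1 kb (47.4%) and 14 within 10 kb, and most were below the list median: the strongest were near Twnk, the mitochondrial helicase (77.7 and 54.9), Esrra, a nuclear receptor (74.0 and 47.8), and Ppara, another (20.02 and 32.3).

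Of 16 genes of the citric acid cycle and pyruvate dehydrogenase, 5 had a summit within 1 kb (31.2%) and 7 within 10 kb (43.8%), which is below the 51.8% of other genes. The strongest were near Sucla2, a succinyl-CoA synthetase subunit (156 in replicate 1 and 137 in replicate 2, 0.44 kb upstream), Idh3b, an isocitrate dehydrogenase subunit (107 and 87.1), and Cs, citrate synthase (84.6 and 70.0). Of 18 genes of inner and outer membrane transport and electron transfer, 3 had a summit within 1 kb (16.7%), below the 21.8% of other genes. Within 10 kb, 11 had one (61.1%), led by Ckmt2, the muscle mitochondrial creatine kinase (59.2 and 50.9), Slc25a4, the heart ATP carrier (37.5 and 31.3), and Mpc2, a pyruvate carrier subunit (30.2 and 30.7). The 80 cytosolic ribosomal protein genes, also short and widely expressed, had summits within 1 kb at 28 (35.0%) and within 10 kb at 65 (81.2%), against 21.8% and 51.8%. No test was made between these lists, so none of these counts sets the oxidative phosphorylation genes apart from them.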

How the data were processed

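CTCF ChIP-seq peak lists of heart at postnatal day 0 were used as deposited, in narrowPeak format on mm10 per the text files beside them. The authors called 300000 relaxed peaks on each of the 2 libraries and on both together, against a control alignment not used here, and derived optimal (44533) and conservative (43221) lists by IDR. The signal value is the deposited one; its scale, the aligner, the peak caller and the IDR threshold were not stated in any label or file header, and read depth is unknown. A summit is the peak start plus the deposited offset, counted from 1.

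Gene 5' ends are those of GENCODE M21 gene records, and sequence is GRCm38; all peaks on chromosomes 1 to 19 lay inside its chromosome lengths. Genes with a summit within 1 or 10 kb were counted. For single libraries, the 44533 strongest relaxed peaks were used. The CTCF core was searched with at most 2 mismatches within 50 bp. Counting and core search were tested on simulated data. Python 3.11.15, pysam 0.24.0, numpy 2.4.6 and pandas 2.3.3 were used.

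The members and lists were chosen with earlier results of these data known. Genes named are those with a promoter summit, the 3 with the strongest summit in each complex and list, complex II genes, Cyc1 and 4 isoform pairs; others were named after their values were seen. The values of some sites are not reported here. Of 93 names in 4 further lists, 92 matched. Alternatives are given in the closing section.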

Additional observations from a re-analysis of the deposited data

How the results depend on the processing

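No paired analysis was possible because there is a single group. Of the recomputed values, 90 stayed close to the reported ones and 19 moved; close means counts within 1.5 times, and differences from other genes within 1 SD between the libraries. No difference changed sign. The difference at 1 kb, 11.9 percentage points, was 13.6 without replicate 1 and 11.2 without replicate 2, and that at 10 kb, 21.0 points, was 19.6 and 18.8. With the conservative list the latter was 16.3, with all transcript 5' ends 17.8 and at 50 kb 13.1. With only the peaks of median signal or more, the differences were 7.03 at 1 kb and 18.8 at 10 kb. There, genes with a promoter summit were 15, with 11, 0, 2, 0 and 2 in complexes I to V, and at 10 kb complexes II and III had 2 and 4. Fewer peaks are in that list by construction. Without replicate 1, complex IV had 3 genes at 1 kb; leaving out either library gave 1 to 3 there. The core was found at 4 promoter summits with at most 1 mismatch and 23 with at most 3. Counting Atp5o once was added after the data were seen. The 2 libraries share a tissue sample, and the small numbers of genes in complexes II and III limit their shares.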
